A study of Mus musculus with 58 samples.

Results

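Liver RNA from mice given trichloroethylene (TCE) at 2 mmol/kg was compared with liver RNA from mice given only the vehicle. The members are 6 of the 58 libraries of the series, chosen by their labels for tissue, chemical and dose: 3 liver libraries at 2 mmol/kg TCE, which is 240 mg/kg, and the 3 liver libraries of the TCE vehicle group. The series measured liver and kidney RNA by sequencing across 4 doses of TCE or tetrachloroethylene (PCE) and a vehicle group for each chemical. All mice were males, 5 to 6 weeks old, and received 1 dose of TCE, PCE or vehicle into the stomach. The vehicle, which every group received, was saline with 5% of the surfactant Alkamuls EL-620, given at 5 mL/kg. The protocol text names B6C3F1/J mice, a hybrid strain, while another label names C57BL/6, and the labels used here do not give the time from dose to sampling. Liver groups used beside the 6 libraries were TCE at 0.22, 0.67 and 6 mmol/kg (24, 80 and 800 mg/kg), PCE at 2 mmol/kg (300 mg/kg) and the PCE vehicle group, with 3 libraries each. PCE at 0.22, 0.67 and 6 mmol/kg (30, 100 and 1000 mg/kg; 3, 2 and 3 libraries) entered the shared fit of all 29 liver libraries and no comparison. Nothing in the labels says whether same-numbered libraries belong together, and p-values here measure only the spread between these libraries, which may be technical.

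TCE is a chlorinated solvent that the liver oxidizes, mainly by the cytochrome CYP2E1, to chloral and trichloroacetic acid, and conjugates with glutathione to a lesser extent. Trichloroacetic acid activates PPARa, a nuclear receptor of hepatocytes that pairs with RXR and drives genes of fatty acid oxidation. In rodent liver the Cyp4a fatty acid hydroxylases and the acyl-CoA thioesterase Acot1 are among its most responsive targets.

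Levels below are read counts scaled to library size (CPM) after TMM scaling, which compares a gene between libraries and not 1 gene with another. Differences are log2 fold changes with their standard error (SE) from edgeR, and a gene is called where its p, adjusted by Benjamini and Hochberg's method, is under 0.05 over the 13157 genes tested. The dose libraries held 40076490 to 65112568 counts and the vehicle libraries 89805766 to 118064716, a difference set by the design. Hepatocyte markers summed to 117000 to 143000 CPM in the vehicle libraries and to 119000 to 133000 CPM in the dose libraries. The kidney tubule genes Umod, Slc12a1, Slc12a3 and Aqp2 were at 0 counts in all 6 libraries, while Kap, a kidney androgen-regulated gene, was at 0 CPM under vehicle and at 0.685, 0 and 0.07 CPM at 2 mmol/kg. All 8 kidney tubule markers summed to 2.65 to 4.29 CPM under vehicle and to 1.89 to 3.52 CPM at 2 mmol/kg. Over the 6 libraries, markers of pancreas summed to 43.1 to 73.8 CPM, of intestine to 33.3 to 82.3 CPM and of adrenal to 10.4 to 32.4 CPM. The summed markers of Kupffer cells, the macrophages of the liver, were at 517, 157 and 307 CPM in vehicle libraries 1, 2 and 3 and at 411, 265 and 196 CPM in the dose libraries. The libraries also stood apart in read composition. The slope of log2 level on log2 transcript length was −0.177, 0.187 and 0.181 in the vehicle libraries and −0.139, 0.029 and −0.121 in the dose libraries. The 2724 tested genes with 2 or more counted transcripts lay on the same side in each library, with a median log2 distance from the mean of the 6 libraries of −0.095, 0.106 and 0.096 in the vehicle libraries and −0.086, 0.031 and −0.077 in the dose libraries. For the 10433 genes with 1 counted transcript that distance lay within −0.016 and 0.01 in each of the 6.

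Between 2 mmol/kg TCE and vehicle, edgeR called 1 of 13157 genes (0.0076%), which was higher. The called gene is 1110059G10Rik, an uncharacterized protein-coding gene on chromosome 9 (122945089 to 122951000, GRCm38.p6). At an unadjusted p under 0.05, 581 genes were higher (4.42%) and 682 lower (5.18%). These shares are the background for the counts of list members at that p below. Between both vehicle groups, which received the same liquid, edgeR called 0 genes (0%), and at that unadjusted p 639 were higher in the TCE vehicle group (4.86%) and 681 lower (5.18%). DESeq2 called 56 genes for the dose and 139 between the vehicle groups. Without overlap between the dose and vehicle libraries, 769 genes were higher (5.84%) and 748 lower (5.69%).

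**Figure D1:**
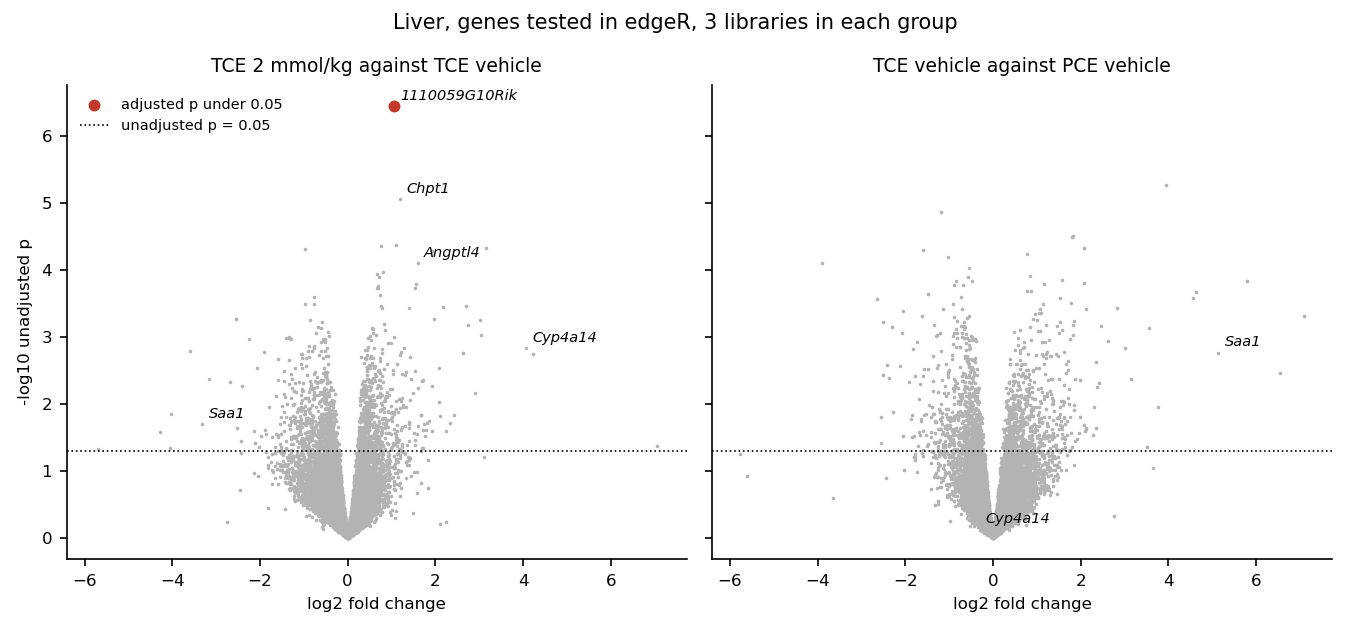
Log2 fold change (x axis) against −log10 of the unadjusted p (y axis) for 13157 genes in edgeR, for 2 mmol/kg TCE against its vehicle (left) and for the TCE vehicle against the PCE vehicle group (right). The red point is 1110059G10Rik, the 1 called gene, and the dotted line marks an unadjusted p of 0.05, which 1263 genes passed on the left and 1320 on the right.

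The start of the called gene is shown because it is the gene on which the count rests, with those of Fgf21, a fasting hormone, and Orm2, an acute phase gene, as examples of the gene groups below. Each runs 5′ to 3′ along the gene, from 250 bases before the start, from RefSeq on GRCm38.p6. Capitals mark the E-box CACGTG and the TATA box TATAAA on either strand, which do not overlap here.
1110059G10Rik, chr9:122950951-122951250, minus strand: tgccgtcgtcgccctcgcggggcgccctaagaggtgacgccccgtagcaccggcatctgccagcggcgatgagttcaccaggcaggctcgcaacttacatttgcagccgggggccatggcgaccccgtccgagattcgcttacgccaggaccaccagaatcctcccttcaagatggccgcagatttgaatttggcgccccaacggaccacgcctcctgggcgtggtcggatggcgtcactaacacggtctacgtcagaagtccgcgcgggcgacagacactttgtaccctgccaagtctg
Fgf21, chr7:45615441-45615740, minus strand: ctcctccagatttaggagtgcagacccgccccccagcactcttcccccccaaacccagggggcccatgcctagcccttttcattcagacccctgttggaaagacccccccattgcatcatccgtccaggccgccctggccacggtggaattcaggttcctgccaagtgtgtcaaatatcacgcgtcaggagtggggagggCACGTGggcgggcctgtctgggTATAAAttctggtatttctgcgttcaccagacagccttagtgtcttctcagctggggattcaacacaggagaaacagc
Orm2, chr4:63362199-63362498, plus strand: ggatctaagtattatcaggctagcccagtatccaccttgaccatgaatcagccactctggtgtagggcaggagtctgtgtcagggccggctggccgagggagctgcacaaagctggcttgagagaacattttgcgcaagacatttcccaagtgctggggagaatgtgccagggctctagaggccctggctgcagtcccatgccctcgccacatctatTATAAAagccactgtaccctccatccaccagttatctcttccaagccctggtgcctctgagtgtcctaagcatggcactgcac
Fgf21 held 1 E-box and 1 TATA box and Orm2 held 1 TATA box, while 1110059G10Rik held neither. Over all 32851 promoters of the table, 7.15% held the E-box and 13.6% the TATA box. The single motif AGGTCA stood in 16.3% of all promoters and the D-box TTATGTAA in 0.938%, on either strand. PPARa and RXR bind a direct repeat of AGGTCA spaced by 1 base. Only its exact form, AGGTCANAGGTCA, was searched in these short stretches, and it stood in 0.0396%. Of the 57 genes named by rule in this comparison, 47 had a promoter in the table. Their 60 promoters held the direct repeat in 0, AGGTCA in 14, the E-box in 5, the D-box in 0 and the TATA box in 11. At 0.0396% of all promoters, the exact repeat was too rare for a count of 0 in 60 to be informative. Whether PPARa binds near these genes was not tested. The promoters of Cyp4a14, Cyp4a10 and Angptl4 were not used here.

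1110059G10Rik was at 5.9, 4.63 and 5.05 CPM under vehicle and at 10.3, 10.6 and 11.5 CPM at 2 mmol/kg. All dose libraries lay above all vehicle libraries, with means of 5.19 ± 0.647 (SD, n = 3) and 10.8 ± 0.642 CPM (SD, n = 3). It rose by 1.06 ± 0.15 on the log2 scale (edgeR adjusted p = 0.00463). Across the TCE series its mean was 5.72 CPM at 0.22 mmol/kg, 8.45 CPM at 0.67 mmol/kg and 9.78 CPM at 6 mmol/kg. The PCE vehicle libraries were at 9.22, 7.81 and 6.57 CPM, above each TCE vehicle library, and against that group the difference at 2 mmol/kg TCE was 0.46 (adjusted p = 0.423). Its call was also lost when length and GC slopes entered as covariates (0.84), with the 6 libraries fitted alone (1.08, adjusted p = 0.544) and, at about the same size, without vehicle library 3 (1.04, adjusted p = 0.0735) or dose library 3 (1.02, adjusted p = 0.0506). Kif15, a mitotic kinesin gene and the nearest annotated neighbour at 81 bases, was at 0.121 to 0.245 CPM in the 6 libraries.

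The genes next in rank did not pass, and several of those higher at 2 mmol/kg were also high in the PCE vehicle group. Chpt1, a cholinephosphotransferase that makes phosphatidylcholine, was at 26, 29.6 and 21.9 CPM under vehicle and at 49.9, 64.9 and 63.5 CPM at 2 mmol/kg (log2 1.20 ± 0.21, adjusted p = 0.057), and at 61.5, 41.2 and 55.3 CPM in the PCE vehicle libraries. EdgeR called Chpt1 with DESeq2's size factors (adjusted p = 0.0483), with thinned counts (adjusted p = 0.0372) and without some single libraries of other groups, among them 0.67 mmol/kg TCE library 3 (adjusted p = 0.00341). DESeq2 called Chpt1, C1d, Sycp3, Zfand6, Tmed5, Acn9 and H3f3a, with adjusted p from 0.000212 to 0.00593. Sycp3, a gene of meiotic chromosomes, overlaps part of Chpt1 on chromosome 10 (88459587 to 88473236 against 88469513 to 88503970). Reads from the shared stretch cannot be told apart without strand, and how many fell there was not counted. Sycp3 differed by 1.56 ± 0.35. C1d, an exosome cofactor, was at 23, 22.7 and 20.6 CPM under vehicle and at 35.7, 38.9 and 38 CPM at 2 mmol/kg, with 39.3, 28.7 and 38.3 CPM in the PCE vehicle libraries. Zfand6 (log2 0.81), Tmed5 (0.71), which takes part in transport from the endoplasmic reticulum, Acn9 (0.69) and H3f3a (0.67), a histone H3.3 gene, also had all dose libraries above all vehicle libraries. The transcripts under the H3f3a symbol were placed by RefSeq mostly at another histone-like locus, so the source of its reads is uncertain.

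Among the genes lower at 2 mmol/kg, none passed in edgeR, while DESeq2 called Rnf43, Hapln4, Irs1, Gas6, Slc13a3, Pvrl1, Uggt1 and Oaz1, with adjusted p from 0.00543 to 0.0493. Without vehicle library 2 edgeR called 18 higher and 21 lower genes, among the lower ones Gas6 (−1.19, adjusted p = 0.0177), Hapln4 (−1.04, adjusted p = 0.029) and Slc13a3 (−0.90, adjusted p = 0.0459). Hapln4 was also called without 0.67 mmol/kg TCE library 3 (adjusted p = 0.0351). Rnf43, a Wnt target that limits Wnt signalling, was at 25, 32.9 and 29.3 CPM under vehicle and at 17.7, 16.8 and 16.4 CPM at 2 mmol/kg (log2 −0.78 ± 0.18, adjusted p = 0.186). The groups do not overlap, and the PCE vehicle libraries were also above the dose libraries, at 25.5, 30.9 and 42.8 CPM. Hapln4, a link protein of the extracellular matrix, differed by −0.96 ± 0.19 (adjusted p = 0.0979). Irs1, an adaptor of the insulin receptor, was at 24.3, 43.8 and 43.5 CPM under vehicle and at 23.9, 18.7 and 18.8 CPM at 2 mmol/kg (log2 −0.86 ± 0.22). Vehicle library 1 lay just above the highest dose library. Gas6, a ligand of TAM receptors, was at 90.9, 48.2 and 94.8 CPM under vehicle and at 47.3, 33.2 and 38.6 CPM at 2 mmol/kg, but at 42.7, 49 and 31.8 CPM in the PCE vehicle libraries. The dicarboxylate carrier gene Slc13a3 (−0.77 ± 0.18) was likewise near the dose level in that group, at 19.6, 16.9 and 21.7 CPM. Pvrl1, a nectin gene, and Uggt1, a glycoprotein folding sensor, differed by −0.58 and −0.69, but by −0.121 and −0.116 against the PCE vehicle group. Oaz1, an inhibitor of polyamine synthesis, differed by −2.55 ± 0.63 at 0.245 to 2.4 CPM over the 6 libraries.

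Genes of fatty acid oxidation were highest in dose library 2, and dose library 1 was mostly within the vehicle range. Of 55 tested members of the Cyp4a, thioesterase, peroxisomal and mitochondrial lists together, 0 were called, 18 were higher and 1 lower at an unadjusted p under 0.05, and 48 had a log2 value above 0. Their median log2 was 0.30, against −0.03 over all genes tested, and it ranged from 0.17 without vehicle library 3 to 0.44 without vehicle library 2. Dose library 1 was above all vehicle libraries for 4 of the 55, dose library 2 for 44 and dose library 3 for 23. Over all genes tested those shares were 21.3%, 18.2% and 23.9%, and 6048 of 13157 genes had a log2 value above 0. At an unadjusted p under 0.05, 4.42% of all genes tested were higher and 5.18% lower.

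Cyp4a14, a fatty acid omega-hydroxylase, was at 1.52, 11.7 and 0.915 CPM under vehicle and at 4.65, 173 and 61.4 CPM at 2 mmol/kg. Dose libraries 2 and 3 exceeded every vehicle library, while dose library 1 was below vehicle library 2. The difference was 4.07 ± 1.13 on the log2 scale and did not pass (edgeR adjusted p = 0.277), while DESeq2 gave 4.10 with an adjusted p of 0.0181. In edgeR it ranged from 2.86 without dose library 2 to 6.05 without vehicle library 2. At 6 mmol/kg the 3 libraries were at 1500, 904 and 849 CPM. Its relative Cyp4a10 was at 18.7, 77.8 and 11.1 CPM under vehicle and at 39.9, 450 and 398 CPM at 2 mmol/kg (log2 3.04 ± 0.80, adjusted p = 0.271), with the same dose library low. DESeq2 called Cyp4a10 (adjusted p = 0.0181), as did edgeR without vehicle library 2 (4.34, adjusted p = 0.043). Cyp4a31 differed by 1.96 ± 0.49 (adjusted p = 0.256, and 0.0181 in DESeq2) and Cyp4a32 by 1.31 ± 0.41. Cyp4a12a, at 721 to 963 CPM in the vehicle libraries, was at 962, 980 and 1140 CPM at 2 mmol/kg. Of the 6 Cyp4a genes tested, 0 were called and 5 were higher at an unadjusted p under 0.05. Their median log2 was 1.63 against the TCE vehicle and 1.81 against the PCE vehicle group. These genes are close relatives, and reads that match several of them may be shared or set aside.

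Acyl-CoA thioesterases release free fatty acids from coenzyme A. Acot1, the cytosolic form, was at 6.05, 17.6 and 3.96 CPM under vehicle and at 9.93, 60.7 and 18.1 CPM at 2 mmol/kg (log2 1.69 ± 0.54, adjusted p = 0.332). The difference was 0.66 without dose library 2 and 2.59 without vehicle library 2. The mitochondrial Acot2 was at 2.24, 4.5 and 1.33 against 3.52, 11.2 and 5.46 CPM (1.32 ± 0.41). Both groups overlap in each gene, since dose library 1 lay below vehicle library 2. Of 10 tested members 0 were called, 2 were higher at an unadjusted p under 0.05, and the median log2 was 0.34, or 0.06 without vehicle library 3 and 0.10 without dose library 2.

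Among peroxisomal genes, Acaa1b, a thiolase of the last oxidation step, was at 563, 1090 and 395 CPM under vehicle and at 990, 1900 and 1350 CPM at 2 mmol/kg (log2 1.05 ± 0.28, adjusted p = 0.271, and 0.0425 in DESeq2). The PCE vehicle libraries were at 1250, 1290 and 1150 CPM, inside the range of the dose libraries. Ehhadh, which catalyses the middle steps, was at 108, 254 and 129 CPM under vehicle and at 179, 514 and 273 CPM at 2 mmol/kg (0.98 ± 0.37, and 0.52 without dose library 2). Slc27a2, a fatty acid transporter and acyl-CoA synthetase, was at 1000, 1080 and 919 against 1140, 2000 and 1210 CPM (0.54 ± 0.17), with no overlap. Decr2, a reductase for unsaturated fatty acids, also did not overlap, with 101, 128 and 86.1 against 133, 185 and 134 CPM (0.52 ± 0.15). Of 18 tested members 0 were called, and 6 were higher and 1 lower at an unadjusted p under 0.05. A log2 value above 0 was held by 15 of them, against 6048 of 13157 over all genes tested. The median was 0.31, or 0.22 against the PCE vehicle group, and it was 0.08 without dose library 2 and 0.50 without vehicle library 2.

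Mitochondrial oxidation and ketone body genes differed less in size. Acadl, an acyl-CoA dehydrogenase, was at 198, 203 and 145 CPM under vehicle and at 202, 273 and 242 CPM at 2 mmol/kg (log2 0.39 ± 0.13). The groups overlap, since dose library 1 lay below vehicle library 2. The carnitine carrier Slc25a20 differed by 0.42 ± 0.16 and the isomerase Eci1 by 0.51 ± 0.19. Cpt1a, which admits fatty acids to mitochondria, differed by 0.08 ± 0.31, and its sign turned without dose library 2 (−0.31). Of 21 tested members 0 were called, and 5 were higher and 0 lower at an unadjusted p under 0.05. A log2 value above 0 was held by 20 of them, against 6048 of 13157 over all genes tested. The median was 0.22, or 0.15 against the PCE vehicle group, and it ranged from 0.13 without vehicle library 3 to 0.41 without vehicle library 2.

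**Figure D2:**
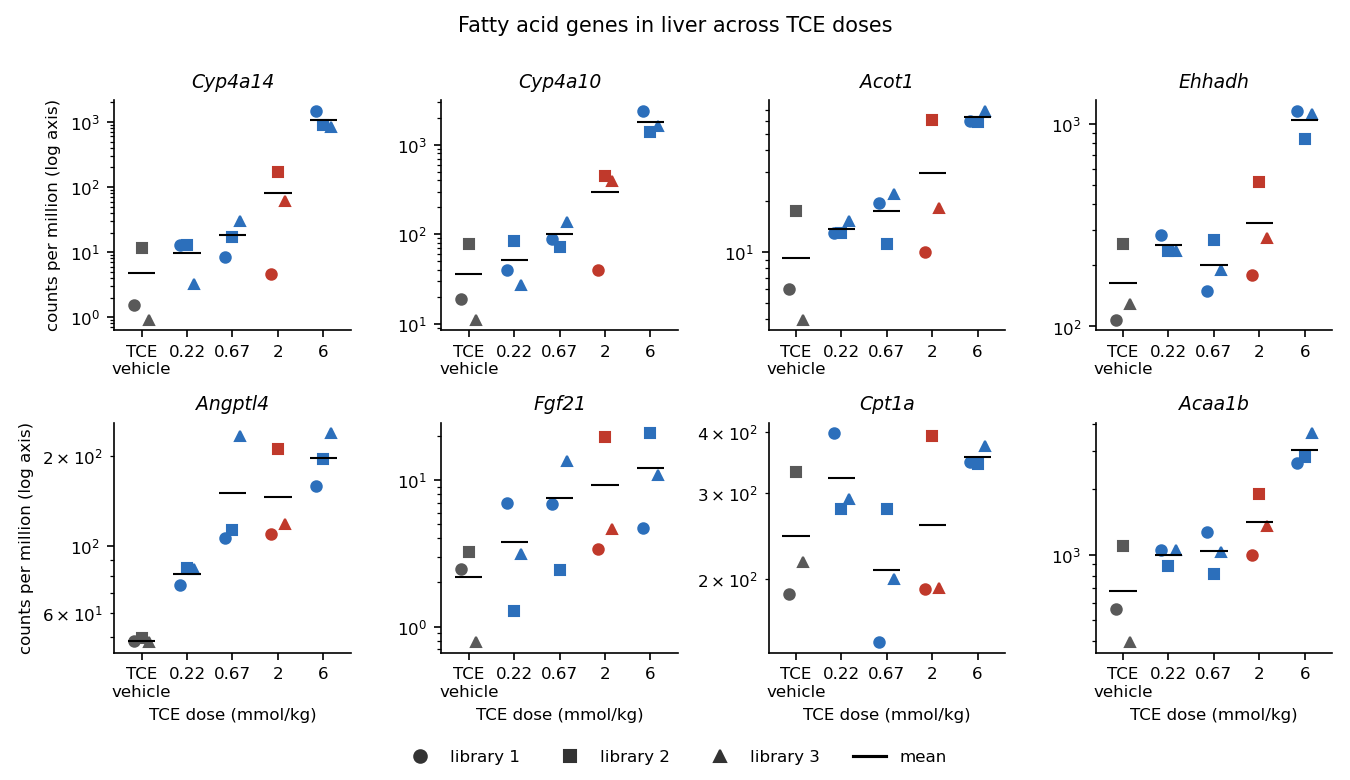
CPM on log axes for 8 fatty acid genes in each liver library of the TCE vehicle group and of the 4 TCE doses, with symbols for libraries 1, 2 and 3 and a bar for the mean of each group. At 2 mmol/kg (red) dose library 1 is the lowest of its group and library 2 the highest in all 8 panels, as for Cyp4a14 at 4.65, 173 and 61.4 CPM.

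Angptl4, a PPARa target whose product inhibits lipoprotein lipase, was at 48.3, 49.4 and 48 CPM under vehicle and at 110, 210 and 119 CPM at 2 mmol/kg. All dose libraries were above all vehicle libraries, dose library 1 included, and the PCE vehicle libraries were at 42.4, 62.9 and 60.8 CPM. The difference was 1.59 ± 0.33 (edgeR adjusted p = 0.128) and ranged from 1.29 to 1.76 over the alternatives. DESeq2 called it (adjusted p = 0.00311), as did edgeR without 0.67 mmol/kg TCE library 3 (adjusted p = 0.0351) or 6 mmol/kg PCE library 2 (adjusted p = 0.0444). Its mean was 81 CPM at 0.22 mmol/kg and 197 CPM at 6 mmol/kg. Fabp1, the liver fatty acid binding protein, was at 4070, 2640 and 1540 CPM under vehicle and at 4400, 4710 and 5710 CPM at 2 mmol/kg (0.85 ± 0.33). Lpl, lipoprotein lipase, was at 16.2 to 18.5 CPM under vehicle and at 30.2, 18.1 and 46.3 CPM at 2 mmol/kg. Of 20 tested genes of fatty acid uptake and lipid droplets 0 were called, 3 were higher and 1 lower at an unadjusted p under 0.05, and the median was −0.01, or 0.29 without vehicle library 2. The lower member, the fatty acid receptor gene Cd36, was at most at 0.22 CPM in each of the 6 libraries. Among the 12 of them with 1 counted transcript, a choice added after seeing the data, it was 0.38.

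Among PPARa regulators and other targets, Fgf21 was at 2.46, 3.25 and 0.782 CPM under vehicle and at 3.4, 19.6 and 4.62 CPM at 2 mmol/kg (log2 2.09 ± 0.74, adjusted p = 0.372), and without dose library 2 the difference was 0.93. Dose library 2 was again the highest, and dose library 1 lay just above vehicle library 2, so that the groups did not overlap. Retsat, a retinol saturase, was at 236, 413 and 190 against 306, 829 and 511 CPM (0.97 ± 0.32), and Vnn1, a pantetheinase, at 5.6, 8.51 and 3.44 against 8.05, 24.5 and 8.05 CPM (1.21 ± 0.43). The receptor gene Ppara itself differed by −0.71 ± 0.35, and Pdk4, which restrains pyruvate use, by −0.16 ± 0.35. Of 17 tested members 0 were called and 3 were higher at an unadjusted p under 0.05, with a median of −0.01.

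Genes that process the solvent had a median log2 of 0.04. It was −0.13 against the PCE vehicle group and −0.19 when length and GC slopes entered as covariates. Cyp2e1, the main oxidizing enzyme, was at 7580, 6710 and 4770 CPM under vehicle and at 6000, 6780 and 6410 CPM at 2 mmol/kg (log2 0.01 ± 0.19). Gstz1, a glutathione transferase that metabolizes dichloroacetate, was at 9.03, 18 and 14.1 against 9, 13 and 9.24 CPM (−0.39 ± 0.40). In the list of solvent oxidation and conjugation 3 of 27 tested genes were higher and 0 lower at an unadjusted p under 0.05, and 0 were called. The glucuronosyltransferase Ugt2b5 differed by 0.43 ± 0.16, the glutathione transferase Gstt1 by 0.48 ± 0.22 and the dehydrogenase Adh7 by 0.51 ± 0.24. Against the PCE vehicle group the difference of Ugt2b5 was 0.053. Ephx1, a microsomal epoxide hydrolase, was at 364, 550 and 284 CPM under vehicle and at 495, 720 and 620 CPM at 2 mmol/kg (0.61 ± 0.18), with 681, 532 and 548 CPM in the PCE vehicle libraries. Of 26 NRF2 and glutathione genes, which answer to oxidative stress, 2 were higher at an unadjusted p under 0.05 and the median was 0.07.

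The xenobiotic cytochrome Cyp2b10, a target of the receptor CAR, was at 2.4, 8.72 and 3.34 CPM under vehicle and at 5.04, 3.22 and 3.8 CPM at 2 mmol/kg. Cyp3a16 was at 0.534, 0.743 and 0.342 against 1.57, 1.56 and 1.61 CPM (log2 1.54 ± 0.35, adjusted p = 0.153, and 0.00593 in DESeq2), with no overlap, but at 1.73, 1.82 and 1.02 CPM in the PCE vehicle libraries. Its relatives Cyp3a25 (−0.59 ± 0.24) and Cyp3a41a (−0.92 ± 0.35) lay the other way. In that list 3 of 24 were higher and 2 lower at an unadjusted p under 0.05.

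Acute phase proteins, which hepatocytes secrete in inflammation, formed the list with the most members lower at an unadjusted p, and 2 vehicle libraries set that difference. Saa1, serum amyloid A, was at 19600, 104 and 11300 CPM under vehicle and at 2640, 382 and 98.2 CPM at 2 mmol/kg. Vehicle library 2 was below dose libraries 1 and 2, so the groups overlap. The difference was −3.31 ± 1.33 (edgeR adjusted p = 0.433), or −5.42 without dose library 1, and against the PCE vehicle libraries, at 103, 606 and 170 CPM, it was 1.83. Saa2 was at 21300, 22.7 and 12000 against 1590, 103 and 25.9 CPM. Lcn2, a siderophore-binding protein, was at 1710, 4.25 and 927 against 149, 8.57 and 4.24 CPM. Orm2, an orosomucoid, was at 1470, 12.5 and 742 against 130, 28 and 27 CPM (−3.59 ± 1.00, adjusted p = 0.277, and 0.0422 in DESeq2), and 1.03 above the PCE vehicle group. In all of these, vehicle libraries 1 and 3 were highest and dose library 1 was the highest of its group.

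Of 33 tested acute phase genes 0 were called, 21 were lower and 0 higher at an unadjusted p under 0.05, and the median was −0.92. Against the PCE vehicle group the median was 0.47. Vehicle libraries 1 and 3 were each above all dose libraries for 27 of the 33 and vehicle library 2 for 5, where the shares over all genes tested were 28.2%, 33.6% and 34.9% for libraries 1, 3 and 2. Mpeg1, a perforin of macrophages, was at 76.4, 28.9 and 128 CPM under vehicle and at 45.7, 27.9 and 21.1 CPM at 2 mmol/kg. Slc13a5, a citrate carrier, was at 10.9, 0.66 and 9.96 against 3.06, 1 and 1.12 CPM. Mpeg1 and Slc13a5 were named by rule for the comparison of both vehicle groups and not for the dose. There they were higher in the TCE vehicle group by 1.82 and 3.94 (edgeR adjusted p = 0.103 and 0.0713). DESeq2 called both there (adjusted p = 0.000438 and 6.37e-07). The summed Kupffer cell markers were also highest in vehicle library 1. Of 12 tested, 11 had a log2 value below 0, against 7108 of 13157 over all genes tested. Their median of −0.23 turned to 0.29 without vehicle library 1. The part of these markers in the acute phase difference was not tested. In such bulk samples fewer cells of a type and less RNA per cell cannot be told apart.

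Genes of protein folding in the endoplasmic reticulum had log2 values mostly below 0. P4hb, a protein disulfide isomerase, was at 2420, 1930 and 2150 CPM under vehicle and at 1460, 1540 and 1530 CPM at 2 mmol/kg (log2 −0.52 ± 0.16), with no overlap. Edem1, which directs misfolded glycoproteins to degradation, was at 217, 273 and 289 against 171, 186 and 154 CPM (−0.61 ± 0.17, adjusted p = 0.277). Calr, a calcium-binding chaperone, was at 2710, 1490 and 1950 against 1530, 1480 and 1450 CPM (−0.46 ± 0.22). Of 25 tested members 0 were called, 3 were lower and 0 higher at an unadjusted p under 0.05, and 21 had a log2 value below 0. Over all genes tested 7108 of 13157 did. The list's median was −0.46, −0.19 against the PCE vehicle group and −0.20 when length and GC slopes entered as covariates. Heat shock genes had a median of −0.34, with 1 of 20 lower at an unadjusted p under 0.05, Bag3 (−0.81 ± 0.39), and with those slopes it was 0.10.

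Genes of the pericentral zone and Wnt targets, which mark hepatocytes around the central vein, had log2 values below 0 in 18 of 20 members. Over all genes tested 7108 of 13157 did. Lgr5, a receptor of R-spondins, was at 7.41, 9.1 and 9.09 CPM under vehicle and at 5.75, 4.87 and 5.67 CPM at 2 mmol/kg (log2 −0.65 ± 0.29), with no overlap. Slc1a4, a neutral amino acid carrier, was at 16.1, 12.3 and 13.4 against 8.76, 6.74 and 7.93 CPM (−0.83 ± 0.27), and Oat, ornithine aminotransferase, at 1170, 879 and 780 against 782, 631 and 649 CPM (−0.46 ± 0.22). Of the 20 tested, 0 were called and 5 were lower at an unadjusted p under 0.05, Rnf43 among them. The median was −0.25, and −0.06 against the PCE vehicle group. Glul, glutamine synthetase of the innermost hepatocytes, differed by −0.13 ± 0.14 and Axin2 by −0.30 ± 0.22. Periportal genes had a median of −0.09.

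Hormone-responsive and lipid synthesis genes had medians below that of all genes. Tat, tyrosine aminotransferase, a fasting enzyme, was at 1540, 2630 and 2810 CPM under vehicle and at 1370, 913 and 1350 CPM at 2 mmol/kg (log2 −0.94 ± 0.28). Of 20 fasting and gluconeogenesis genes 0 were called and 3 were lower at an unadjusted p under 0.05, Irs1 and Got1 beside Tat, with a median of −0.25. Srebf1, the regulator of fatty acid synthesis, was at 288, 509 and 299 against 206, 162 and 264 CPM (−0.79 ± 0.28), with no overlap, and of 24 lipogenesis genes it was the 1 lower at an unadjusted p under 0.05. The median was −0.32, −0.17 among the 18 with 1 counted transcript, and −0.08 when length and GC slopes entered as covariates. Dhcr7, a late enzyme of cholesterol synthesis, differed by −0.42 ± 0.21, and 0 of 23 cholesterol genes passed the unadjusted p. Their median was −0.21, and 0.05 against the PCE vehicle group. Cyp7a1, the rate-limiting enzyme of bile acid synthesis, was at 45.9, 104 and 173 against 60.4, 46 and 38.4 CPM (−1.16 ± 0.56). The bile acid importer Slc10a1 differed by 0.44 ± 0.16. Among 13 glucocorticoid response and metallothionein genes 0 were called. At an unadjusted p under 0.05, 1 was higher, Errfi1 (0.62), and 1 lower. The median of that list was −0.16, and 0.13 against the PCE vehicle group.

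**Figure D3:**
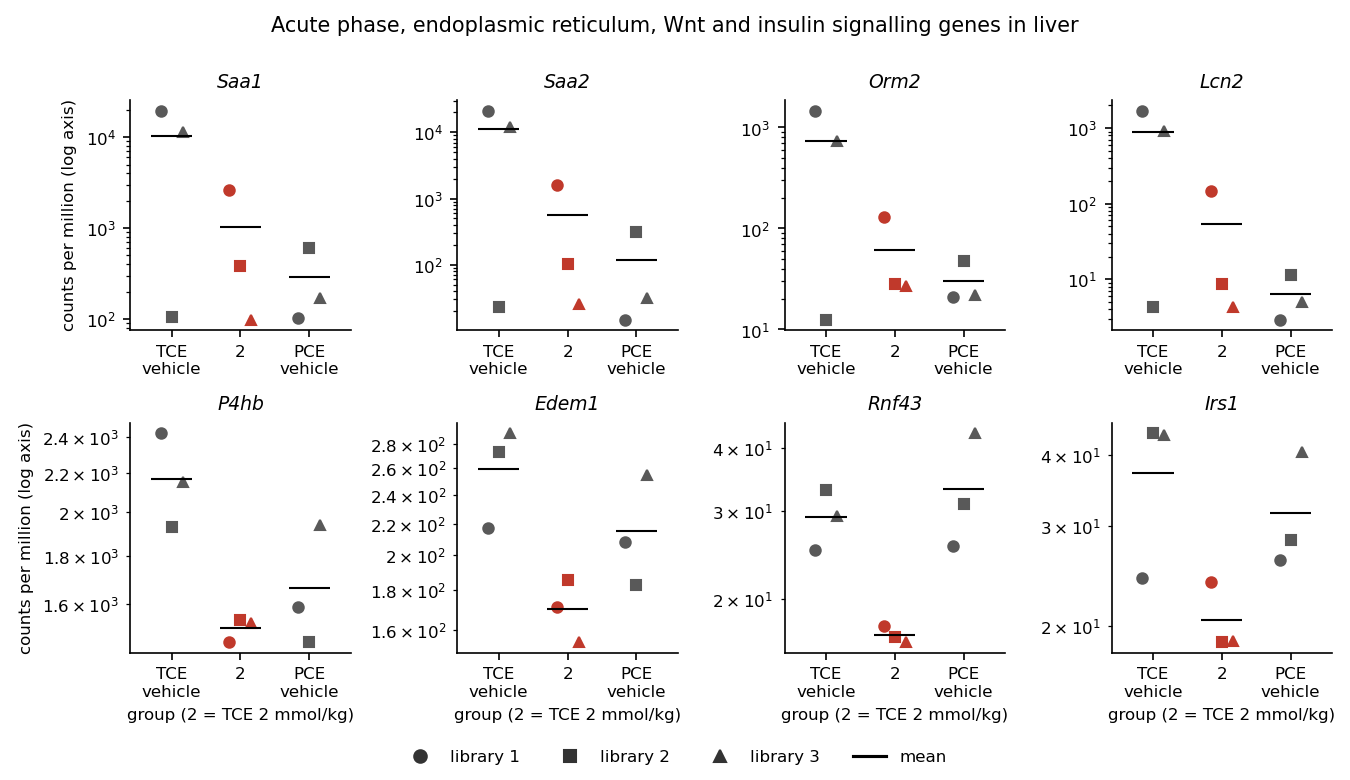
CPM on log axes in each library of the TCE vehicle, 2 mmol/kg TCE (red) and PCE vehicle groups for 4 acute phase genes (top) and for P4hb, Edem1, Rnf43 and Irs1 (bottom), with a bar for the mean. In the top row vehicle libraries 1 and 3 stand above the rest and library 2 does not, as for Saa1 at 19600, 104 and 11300 CPM, while in the bottom row all 3 vehicle libraries lie above the red points.

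Lists of DNA damage, division, interferon and daily rhythm held 0 called genes. Cdkn1a, a p53 target that halts the cell cycle, was at 0.43, 0.651 and 1.15 CPM under vehicle and at 0.758, 2.72 and 0.84 CPM at 2 mmol/kg (log2 0.98 ± 0.69), and 1 of 24 genes of its list, Zmat3 (−0.51 ± 0.20), passed that p. Rad51b, a recombination gene, was at 0.901, 0.257 and 0.364 against 0.563, 0.41 and 0.653 CPM. The replication helicase genes Mcm2 (−0.77 ± 0.24) and Mcm4 (−0.48 ± 0.22) were the 2 of 21 cell cycle genes that passed the unadjusted p, both lower. Ifit1, an interferon-induced gene, was at 4.82, 4.3 and 3.65 against 5.82, 6.66 and 6.88 CPM (0.60 ± 0.18), and 4 of 26 interferon genes were higher at that p. Cxcl10, a chemokine of that list, differed by 1.11 ± 0.39. Of 17 clock genes 1 was lower, Cry2 (−0.58 ± 0.22), a repressor of the clock. Among 22 immediate early genes Ier2 (0.73 ± 0.33) and Klf10 (1.12 ± 0.52) were higher. Among 19 ATF4 and amino acid genes Chac1 (1.10 ± 0.47) was higher and the carrier Slc7a5 (−0.86 ± 0.27) lower. Against the PCE vehicle group Slc7a5 differed by −0.04.

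Nuclear-encoded respiratory chain genes and cytosolic ribosomal proteins, long lists of mostly short transcripts, had medians of 0.24 and 0.14. The respiratory chain genes were picked by the start of their symbol, so that the list holds assembly factors beside the subunits. Ndufaf1, an assembly factor of complex I, was at 28.9, 23.8 and 21.3 CPM under vehicle and at 35.5, 31.4 and 32.9 CPM at 2 mmol/kg (log2 0.43 ± 0.12). Vehicle library 1, with the lowest length slope, was above all dose libraries for 71 of 77 ribosomal genes, and vehicle libraries 2 and 3 for 0. When length and GC slopes entered as covariates the medians were 0.01 and −0.07, and against the PCE vehicle group both were −0.04. Without vehicle library 1 they were 0.60 and 0.57, and without vehicle library 3 they were 0.09 and −0.02.

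**Figure D4:**
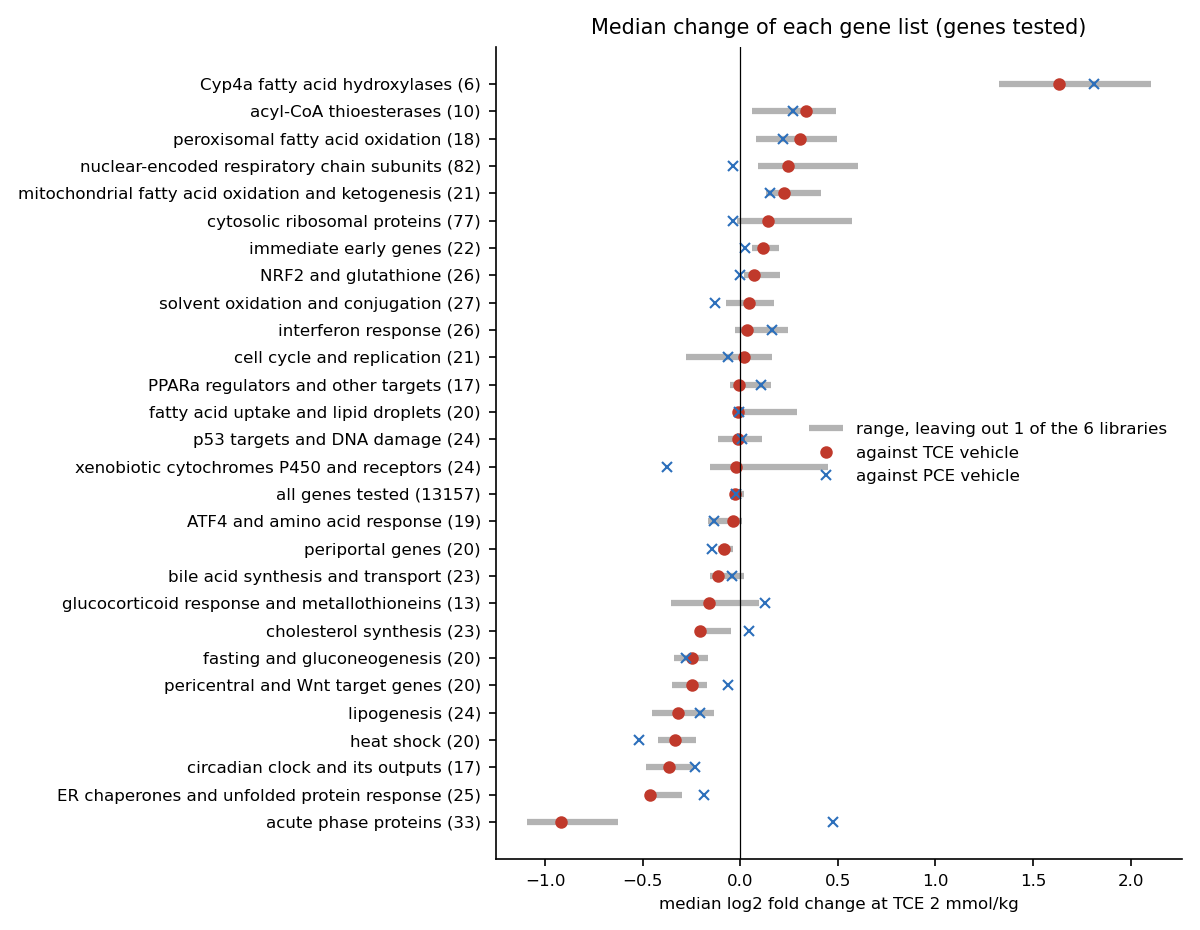
Median log2 fold change at 2 mmol/kg TCE (x axis) of each gene list and of all genes tested (y axis, with the number of genes tested), against the TCE vehicle (red points) and the PCE vehicle group (blue crosses), with grey bars for the range when 1 of the 6 libraries is left out. The Cyp4a median is highest at 1.63 with a cross at 1.81, and the acute phase median is lowest at −0.92 with a cross at 0.47.

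The dose above was compared with 2 mmol/kg in the same fit. Its libraries were also deeper, at 101634908 to 114388607 counts against 40076490 to 65112568 at 2 mmol/kg. At 6 mmol/kg TCE, edgeR called 4 of 13157 genes against 2 mmol/kg (0.0304%). Dbp, a transcription factor of daily rhythm, was at 0.978, 0.668 and 1.63 CPM at 2 mmol/kg and at 17.1, 11.3 and 2.13 CPM at 6 mmol/kg, and rose by 3.23 ± 0.54 (adjusted p = 0.0292). Npas2, a clock activator, was at 11.7, 12.6 and 13.2 against 2.43, 3.88 and 4.9 CPM, and fell by 1.74 on the log2 scale (adjusted p = 0.0292). Ppard, the gene of the receptor PPARd, was at 62.3, 35.9 and 55.1 against 11.3, 15.5 and 17.2 CPM, and fell by 1.798 (adjusted p = 0.0379). Fam222a was at 17.4, 13.5 and 18.2 against 4.46, 6.69 and 7.72 CPM, and fell by 1.38 (adjusted p = 0.0292). In each of the 4 genes the 2 and 6 mmol/kg libraries do not overlap. This adds no support, since the genes were called on these same libraries. The share of all genes without overlap between these groups was not counted. At 2 mmol/kg none of them had passed against vehicle, with log2 values of 0.32 for Dbp, −0.37 for Npas2, −0.38 for Ppard and −0.25 for Fam222a. Without dose library 1 or 3 at 2 mmol/kg, or library 1 or 2 at 6 mmol/kg, 0 genes were called.

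From 2 to 6 mmol/kg none of the fatty acid genes named here passed in the reported edgeR fit. Cyp4a14 was 3.76 ± 1.11 higher at 6 than at 2 mmol/kg (edgeR adjusted p = 0.971), Acaa1b 1.09 ± 0.28 (adjusted p = 0.474) and Ehhadh 1.69 ± 0.37 (adjusted p = 0.256). DESeq2 called Ehhadh (adjusted p = 0.00525), as did edgeR with the replicate block and slopes (1.52, adjusted p = 0.0377) and without dose library 2 at 2 mmol/kg (2.19, adjusted p = 0.0453), while Angptl4 differed by 0.43 ± 0.33. The Cyp4a list had a median of 1.21 and the acute phase list of −0.43 from 2 to 6 mmol/kg. Rgs16, a regulator of G protein signalling, was at 3.57, 5.51 and 4.24 CPM at 2 mmol/kg and at 19.8, 93.7 and 14.5 CPM at 6 mmol/kg, a difference of 3.26 ± 0.75 (edgeR adjusted p = 0.296, and 0.00525 in DESeq2). It was at 19.8, 73.1 and 84.1 CPM at 0.67 mmol/kg, above all libraries at 2 mmol/kg, so its levels did not follow the dose.

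**Figure D5:**
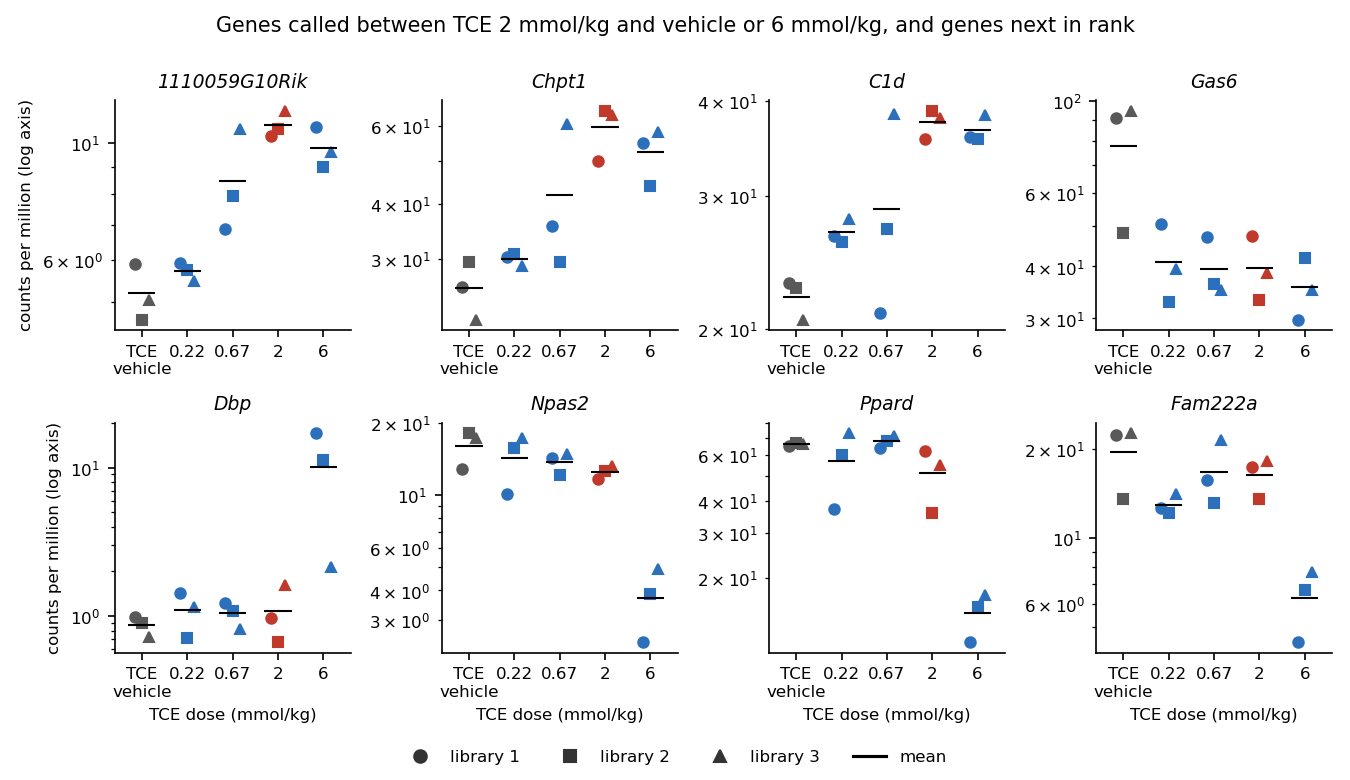
CPM on log axes in each TCE liver library for 1110059G10Rik, which was called against vehicle, for Chpt1, C1d and Gas6 of the next ranks (top), and for the 4 genes called between 2 and 6 mmol/kg (bottom), with a bar for the mean of each group. The 2 mmol/kg libraries (red) of Npas2 and Ppard lie near the lower doses and the 6 mmol/kg libraries below them, as for Npas2 at 11.7, 12.6 and 13.2 against 2.43, 3.88 and 4.9 CPM.

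Against the dose below, 0.67 mmol/kg, edgeR called 0 genes (0%), with 367 at an unadjusted p under 0.05, and DESeq2 called 1, Rgs16 (−3.73, adjusted p = 0.00189). Hhex, a hepatic transcription factor, was at 53.9, 50.8 and 46.2 CPM at 0.67 mmol/kg and at 47.6, 129 and 199 CPM at 2 mmol/kg. Herpud1, a gene of protein degradation at the endoplasmic reticulum, was at 718, 600 and 527 against 319, 376 and 304 CPM. Cyp4a14 was at 8.43, 17.1 and 29.9 against 4.65, 173 and 61.4 CPM, and Angptl4 at 107, 113 and 232 against 110, 210 and 119 CPM, so that dose library 1 at 2 mmol/kg was not above the 0.67 mmol/kg libraries in Cyp4a14.

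PCE carries chlorine where TCE carries its single hydrogen, and 1 pair of groups at the matched molar dose of 2 mmol/kg was compared, each against its own vehicle. EdgeR called 0 genes (0%) for the difference between both responses, with 913 at an unadjusted p under 0.05, and DESeq2 called 3. Cyp4a14 was at 207, 703 and 288 CPM at 2 mmol/kg PCE against 4.65, 173 and 61.4 CPM at 2 mmol/kg TCE. All PCE libraries were above all TCE libraries, and the response to PCE was larger by 2.01 on the log2 scale, with a 95% interval from −0.94 to 4.97 (adjusted p = 0.792). For Cyp4a10 the difference was 1.35 (95% interval −0.83 to 3.53), for Acaa1b 0.09 (−0.72 to 0.89) and for Angptl4 −0.38 (−1.33 to 0.56). These intervals are wide enough to hold differences of either sign. Socs2, an inhibitor of growth hormone signalling, was at 0.786, 0.321 and 0.353 CPM in the TCE vehicle libraries and at 1.42, 4.4 and 3.87 CPM at 2 mmol/kg TCE, but at 2.02, 0.572 and 0.793 CPM in the PCE vehicle libraries and at 0.32, 0.272 and 0.0778 CPM at 2 mmol/kg PCE. That difference was −5.05 with a 95% interval from −7.18 to −2.91 (edgeR adjusted p = 0.331), and DESeq2 called it (adjusted p = 0.00209). Fdx1l, a mitochondrial ferredoxin gene, was at 3.3, 2.89 and 2.58 CPM in the TCE vehicle libraries and at 3.84, 3 and 3.78 CPM at 2 mmol/kg TCE. It was at 3.31, 0.176 and 1.31 CPM in the PCE vehicle libraries and at 0.0685, 0.113 and 0.0259 CPM at 2 mmol/kg PCE. Its difference between the responses was −4.74 (95% interval −6.74 to −2.75, edgeR adjusted p = 0.331), which DESeq2 called (adjusted p = 0.00258), as did edgeR without PCE vehicle library 2 (adjusted p = 0.00146). For 1110059G10Rik it was −0.70 (−1.13 to −0.26, adjusted p = 0.576), with 9.21, 10.3 and 10.9 CPM at 2 mmol/kg PCE.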

How the data were processed

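The data are total RNA sequencing libraries of mouse liver. The authors deposited unnormalized counts, 1 line per RefSeq transcript, per the file headers, also at 0.22 and 0.67 mmol/kg, where expected counts seemed possible. The columns of those libraries carry a decimal dose line, but all their deposited counts were whole, and they were read like the other columns. Per the submitters' processing notes, mm10, HTSeq, TopHat2 2.0.10 and CASAVA 1.8.2 were used, in roles not stated. The strand setting, annotation release and any filter are not given in the sources used here. Counts set aside as ambiguous (20.4 to 22.55% of the 6 libraries) or without feature (14.56 to 19.79%) stayed out of totals and tests, so genes with several transcripts, overlapping neighbours or close relatives are uncertain in level.

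The 33392 transcripts were summed to 24037 genes by the deposited symbol, with blank (3779) or date-like (51) symbols replaced from other transcripts or the RefSeq table of GRCm38.p6. All 29 liver libraries shared 1 fit in edgeR 4.0.16 (R 4.3.3), with TMM scaling, filterByExpr, robust quasi-likelihood dispersion, 10 group means and two-sided quasi-likelihood F tests. The common biological coefficient of variation was 0.257. SE was taken as the size of the log2 fold change over the root of F. No 2 replicates of either group matched within sampling noise (lowest chi-square per degree of freedom 93.67). In counts simulated for this comparison over 12967 genes, 98 of 100 genes changed by a log2 of 2 and 98 of 100 changed by 3 were recovered, with 7 unchanged genes called. All these genes were changed at once, which eases the adjusted threshold, and differences in read composition between libraries were left out. The recovery therefore does not carry over to the real comparison, where 1 gene was called.

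The members and the gene lists were chosen with earlier results of these data known. Named genes are the called ones (if at most 10), the 8 higher and 8 lower of smallest p with at least 1 CPM, without predicted names (3 and 3 in other comparisons), the member of each list with the smallest p, and 16 fixed genes. Further genes in the text were picked with their values known. Some list members are counted but not reported here by name. Alternatives were DESeq2's size factors, DESeq2 1.42.0, no count filter, fewer libraries, a replicate block, length and GC slopes, thinning to 30932385 counts, RefSeq names, the other or both vehicle groups, and leaving out each of the 29 libraries.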

Additional observations from a re-analysis of the deposited data

How the results depend on the processing

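The count of genes called between 2 mmol/kg TCE and vehicle was 1, the same gene, without a count filter, with RefSeq names and with a replicate block. It was 2 with DESeq2's size factors, 3 with counts thinned to equal depth and 56 with DESeq2. It was 0 with the libraries compared alone, with the TCE libraries alone, with length and GC slopes, with the block and slopes together, and with the PCE vehicle group. With both vehicle groups pooled it was 1, and 0 were shared with the reported call. Leaving out each of the 29 libraries gave 0 to 39, with 0 when vehicle library 3 or dose library 3 was dropped, 39 (18 higher, 21 lower) for vehicle library 2, 11 for 0.67 mmol/kg TCE library 3, 4 for 0.67 mmol/kg TCE library 1 or 6 mmol/kg PCE library 2, and 2 for 0.67 mmol/kg TCE library 2, PCE vehicle library 2 or 2 mmol/kg PCE library 3. For 6 against 2 mmol/kg the counts were 0 with the libraries compared alone, 2 with the TCE libraries alone, 0 with slopes, 21 with DESeq2 and 0 to 5 leaving out a library. Against 0.67 mmol/kg DESeq2 gave 1, and leaving out a library 0 to 0. For the PCE response minus the TCE response DESeq2 gave 3 and leaving out a library 0 to 3, the 3 without PCE vehicle library 2. Between the vehicle groups slopes gave 14, thinning 3, DESeq2 139 and leaving out a library 0 to 97, the 97 without TCE vehicle library 2 and 13 without PCE vehicle library 1. The cause was not tested.

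Same-numbered libraries had correlations of 0.586, 0.508 and −0.497 in their deviations from group means, so by this check the numbers were not taken to pair the samples. With a replicate block the counts were 1, 5, 0, 0 and 0 in the 5 comparisons.

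Differences that turned sign against vehicle were not called in the reported fit. With the PCE vehicle group they were 0.069 for Slc13a3, 0.062 for Dhcr7, 1.03 for Orm2, −0.25 for Rpl22 and 1.82 for Saa1. With slopes they were 0.25 for Pdk4, −0.23 for Cyp2e1 and −0.10 for Rad51b, and with block and slopes 0.34, −0.22 and −0.16. Cyp2e1 was −0.024 without a count filter, and Rad51b −0.065 with thinned counts. Leaving out a library gave −0.309 to 0.388 for Cpt1a, −0.391 to 0.331 for Pdk4, −0.159 to 0.177 for Cyp2e1, −0.566 to 0.516 for Cyp2b10, −0.082 to 0.63 for Dbp and −0.212 to 0.813 for Rad51b.

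Each group held 3 libraries, and recovery of simulated differences below a log2 of 2 was not tested. At larger sizes the recovery holds only for the simulated setting.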
